A study of Danio rerio with 6 samples.

Results

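The genes described here are 7 transcription factor genes of the T cell lineage, gata3, tox, tcf7, lef1, bcl11ba, satb1a and runx3. Each was taken as the row with an Ensembl zebrafish gene ID whose symbol equals the gene name, among 27314 rows of the deposited count table. Of the 7 genes, 5 had counts and passed the filter on low counts, and lef1 and satb1a were at 0 in all 6 libraries. The libraries were made by Smart-seq2, which amplifies full-length cDNA without molecular identifiers, from blood cells of the larval zebrafish kidney, the organ that houses blood stem and progenitor cells in fish. All larvae carried Tg(coro1a:DenNTR), a transgene that places photoconvertible Dendra2 fused to NTR under the promoter of the leukocyte gene coro1a, and their genotype is otherwise given as WT. They were treated with DMSO or with MTZ, and taken at 3.5 dpt and 9 dpf. With NTR (nitroreductase) transgenes, MTZ usually stands for metronidazole, which the enzyme turns into a cell toxin. In both groups a 405-nm laser turned the labelled kidney cells red, about 80 larvae were pooled, and 50 red cells were sorted for each library, with 3 libraries per group. The coro1a promoter marks leukocytes in general, so the sort did not select T cells. Whether each library had its own pool of larvae is not stated in the labels, so the p-values cover the spread among these libraries only, and that spread may be technical.

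As background, T cell development begins when lymphoid progenitors seed the thymus and receive Notch signals. In mice, TCF-1 (the product of Tcf7) and GATA3 act early to start the T cell programme, and BCL11B closes off other fates at commitment. LEF1 shares the DNA-binding HMG box of TCF-1 and much of its work, TOX is a further HMG-box protein needed for CD4 lineage cells, SATB1 organises chromatin in thymocytes, and RUNX3 silences Cd4 in CD8 T cells. GATA3, TOX and RUNX3 also act in innate lymphoid or natural killer cells, so the genes are not private to T cells.

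Total counts were between 14058382 and 20674280 per library. Levels are given in CPM, counts scaled to a common library size with TMM factors, and 3 counts correspond to between 0.149 and 0.233 CPM. That floor covers counting error only, since the method cannot tell copies of 1 molecule from separate molecules. The leukocyte gene coro1a had between 1290 and 2570 CPM in every library and the pan-leukocyte phosphatase gene ptprc between 15.7 and 243 CPM. Skeletal muscle markers summed to 8880 CPM in DMSO 1 and to at most 26.1 CPM elsewhere. Neutrophil markers summed to 5350, 1170 and 4990 CPM in DMSO and to 15600, 1240 and 1610 CPM in MTZ. The neutrophil lysozyme gene lyz had at least 3180 CPM in DMSO 1, DMSO 3 and MTZ 1 and at most 6.68 CPM in the others, where srgn, at 996 to 1230 CPM, made up most of the sum. Thrombocyte markers summed to 50.1, 202 and 210 CPM in DMSO and to 356, 273 and 260 CPM in MTZ, without overlap. Their two-sided exact permutation p was 0.1, the smallest possible with these libraries. Of 5 tested thrombocyte genes, 3 had a fold change above 0 and 2 below 0. Among the latter, gp9 had 17.3, 19.4 and 24.7 CPM in DMSO and 0, 5.94 and 5.61 CPM in MTZ. Over all 6 libraries, macrophage markers summed to between 88.4 and 2440 CPM. B cell markers summed to between 14.9 and 170 CPM and erythroid markers to between 13.2 and 102 CPM. Skin markers summed to between 53.3 and 454 CPM and kidney tubule markers to between 0 and 42.8 CPM, both highest in DMSO 1. Genes listed for pancreas summed to between 0.702 and 1200 CPM. Among them, cpa5 had 346, 442 and 1200 CPM in DMSO 1, DMSO 3 and MTZ 1, the libraries high in lyz. It had 134 CPM in MTZ 3 and at most 1.05 CPM elsewhere. Without cpa5 the pancreas sum was 749 CPM in MTZ 3 and between 0.054 and 32.4 CPM elsewhere. The highest level of cpa5 was thus in another library than the highest sum of the rest of its list. The part of pancreas RNA in the level of cpa5 was not tested.

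Among the genes of the early programme, gata3 and tcf7 both had counts in all 6 libraries, with lower means in MTZ. The zinc finger factor gene gata3 (ENSDARG00000016526) had 121, 381 and 203 CPM in DMSO 1, 2 and 3 and 2.43, 143 and 75.5 CPM in MTZ 1, 2 and 3, the order used throughout. DMSO 2 was the highest library and MTZ 1 the lowest, and the groups overlapped because MTZ 2 lay above DMSO 1. Its mean was 235 ± 133 CPM in DMSO and 73.7 ± 70.3 CPM in MTZ (SD, n = 3 each). The HMG-box gene tcf7 (ENSDARG00000038672), a nuclear effector of Wnt signalling, had 8.79, 16.4 and 13.5 CPM in DMSO and 9.93, 3.16 and 9.43 CPM in MTZ. MTZ 2 stood lowest, and the other MTZ libraries lay just above DMSO 1. The mean of tcf7 was 12.9 ± 3.86 CPM in DMSO and 7.51 ± 3.78 CPM in MTZ, and it was found in all 6 libraries with 51 to 281 counts.

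The commitment gene bcl11ba (ENSDARG00000062510), a zinc finger factor, had 9.56, 16.8 and 187 CPM in DMSO and 44.5, 48.4 and 0.149 CPM in MTZ. A single DMSO library, DMSO 3, held most of the DMSO counts, and MTZ 1 and MTZ 2 lay above the other DMSO libraries. MTZ 3 held 3 counts, which is at the detection floor.

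Of the genes that act later, in selection and in the CD4 and CD8 choice, tox alone had groups that did not overlap. The gene tox (ENSDARG00000032317) had 122, 18.5 and 16.8 CPM in DMSO and 11.9, 3.90 and 0 CPM in MTZ. DMSO 1, where muscle markers summed to 8880 CPM, stood far above the other DMSO libraries. The part of RNA from other tissues in the level of tox was not tested. MTZ 3 had 0 counts, which by counting error alone allows a level of up to 0.149 CPM. The Runt-domain gene runx3 (ENSDARG00000052826) had 175, 195 and 421 CPM in DMSO and 92.8, 248 and 106 CPM in MTZ. DMSO 3 was highest, MTZ 2 lay above DMSO 1 and DMSO 2, and no library was near the floor. Its mean was 264 ± 137 CPM in DMSO and 149 ± 86.2 CPM in MTZ.

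The HMG-box gene lef1 (ENSDARG00000031894) and the chromatin organiser gene satb1a (ENSDARG00000057649) had no count in any library. Where these loci were counted as the others were, which the table alone cannot show, counting error alone allows up to between 0.149 and 0.233 CPM in a library. Among the 25116 rows with an Ensembl gene ID, 37.4% were at 0 in all 6 libraries.

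**Figure D1:**
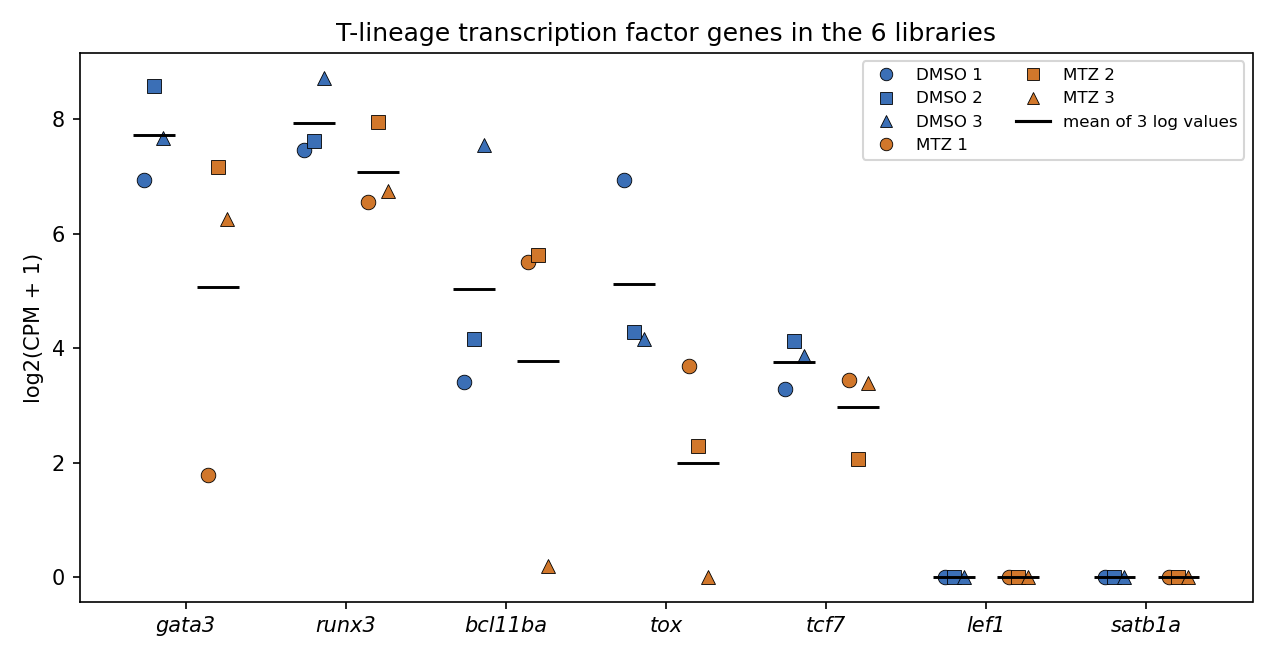
Level of each gene in every library, as log2(CPM + 1). Blue points are DMSO libraries, orange points are MTZ libraries, the marker shape gives the replicate number, and each bar is the mean of 3 log values. For tox every DMSO point lies above every MTZ point, while gata3, runx3, bcl11ba and tcf7 overlap, and lef1 and satb1a lie at 0.

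The comparison of MTZ with DMSO asks how the kidney blood cells differed after the treatment. None of the 5 tested T-lineage factor genes passed edgeR's quasi-likelihood test, in a table where 0.0% of 10283 genes passed at an adjusted p under 0.05. The fitted log2 fold change was below 0 for all 5, with a median of -1.20, while the median over all tested genes was 0.02 and 49.1% of them were below 0. The choice of the genes was made with earlier results of these data known, so this count is a description. The fold change was -3.32 ± 2.07 (SE) for tox, with a 95% interval from -8.06 to 1.42. It was -1.67 ± 1.08 for gata3, with an interval from -4.15 to 0.80. The narrowest interval belonged to runx3, at -0.82 ± 0.51 and from -1.99 to 0.35. For bcl11ba it was -1.20 ± 1.69, from -5.07 to 2.68, and for tcf7 it was -0.78 ± 1.83, from -4.98 to 3.42. The adjusted p of edgeR was 0.9997 for each gene, and the unadjusted values lay between 0.144 for runx3 and 0.681 for tcf7. In 3.18% of all tested genes the unadjusted p was under 0.05, and in none of the 5. One gene of the 5, tox, had groups that did not overlap, while the groups did not overlap in 10.8% of all tested genes, and in 5.17% with MTZ lower.

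Single libraries set the size of several of these differences. Leaving out MTZ 1, the library with 2.43 CPM of gata3, moved gata3 from -1.67 to -1.09 on the log2 scale, and leaving out MTZ 2 moved it to -2.58. Leaving out DMSO 1 moved tox from -3.32 to -1.74. Leaving out DMSO 3 moved runx3 from -0.82 to -0.31 and turned bcl11ba from -1.20 to 1.23. Leaving out MTZ 3 moved bcl11ba to -0.60, leaving out MTZ 2 moved runx3 to -1.40, and leaving out MTZ 2 moved tcf7 from -0.78 to -0.41. With DESeq2, which called 1.33% of its genes, tox had an adjusted p of 0.938 and gata3, tcf7 and runx3 1.0, and its outlier handling gave no p for bcl11ba. Without a filter on low counts, edgeR called 0.29% of all genes and none of the 5.

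**Figure D2:**
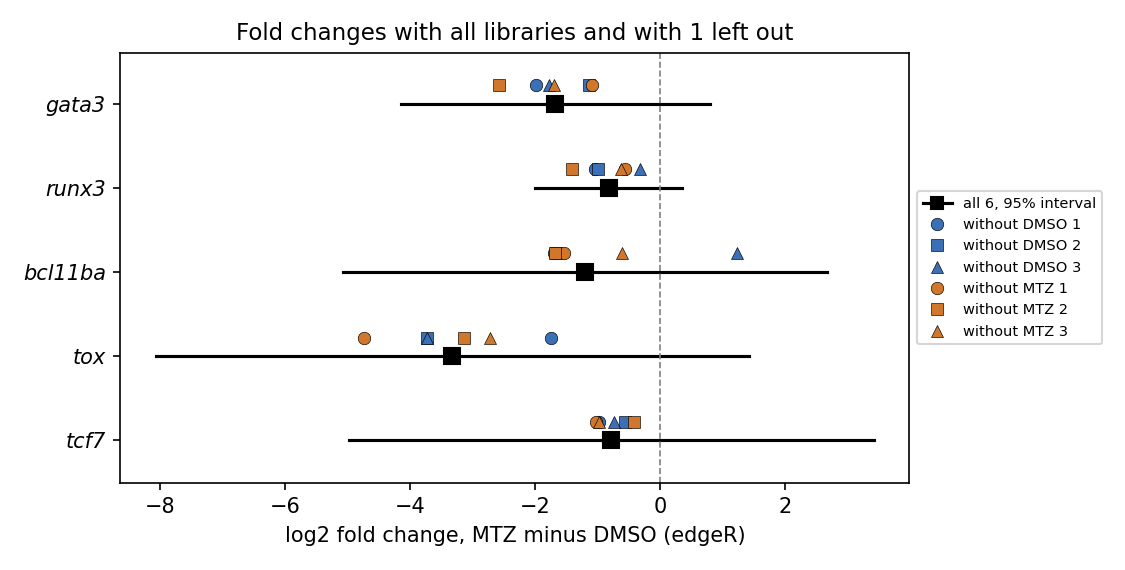
Log2 fold change of MTZ against DMSO for the 5 tested genes. Black squares with lines are the fit to all 6 libraries with its 95% interval, and coloured points are fits with 1 library left out. Every interval crosses 0, and bcl11ba moves from -1.20 to 1.23 without DMSO 3.

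The spread within groups separated the genes. On the log2(CPM + 1) scale, the SD within groups was 0.63 for tcf7 and 0.73 for runx3, against a median of 1.43 over all tested genes. It was 1.72 for tox, 2.12 for gata3 and 2.69 for bcl11ba, and 91.3% of tested genes had a smaller value than bcl11ba. All of these genes except tox had counts in every library, as did 64.3% of all tested genes.

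Paralogs of the factors were read beside them, since a zebrafish gene often has a duplicate that could carry the counts. Of 22 listed paralogs, 8 had no counts, 10 were tested, and 0 passed edgeR's test. Of the tested paralogs 5 had a fold change above 0 and 5 below 0, with a median log2 fold change of 0.20. Levels of paralogs are not ranked against each other here, because the counts are not corrected for gene length.

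In the TOX family, tox2 (ENSDARG00000100055) had 82.3, 93.9 and 126 CPM in DMSO and 149, 34.2 and 18.5 CPM in MTZ, with a log2 fold change of -0.58 ± 0.79. MTZ 1 was its highest library, and the other MTZ libraries lay below every DMSO library. The gene tox3 had 27.0 CPM in DMSO 1, the library in which tox was also highest, 5.63 CPM in MTZ 2 and at most 0.351 CPM elsewhere. The gene tox4a had counts in MTZ 3 alone, at 2.63 CPM.

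In the TCF and LEF family, tcf7l1b (ENSDARG00000007369), a gene of the TCF3 type of Wnt effector, was found in all 6 libraries. It had 33.0, 6.67 and 29.5 CPM in DMSO and 32.7, 65.3 and 40.8 CPM in MTZ, with a log2 fold change of 1.00 ± 1.09. DMSO 2 and MTZ 2, its lowest and highest libraries, were the highest and lowest libraries of tcf7. Its duplicate tcf7l1a had 0.0778, 0.117 and 10.9 CPM in DMSO and 54.9, 7.92 and 13.7 CPM in MTZ (log2 fold change 2.78 ± 2.37). The gene tcf7l2 reached at most 1.12 CPM in DMSO and 7.30 CPM in MTZ 3.

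For satb1a, listed at 0, the duplicate satb1b (ENSDARG00000062621) had 0.467, 21.9 and 5.66 CPM in DMSO and 0, 4.70 and 11.5 CPM in MTZ. It was thus detected in every library except MTZ 1, with a log2 fold change of -0.79 ± 2.55. For bcl11ba, the duplicate bcl11bb, matched through a table of gene IDs, had at most 0.622 CPM. The relative bcl11aa, a gene of the BCL11A type known in B cell and dendritic cell development in mice, had 19.6 and 6.25 CPM in DMSO 2 and DMSO 3, 47.3 CPM in MTZ 2, 0.546 CPM in MTZ 3 and 0 in the other 2 libraries.

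In the RUNX family, the stem cell gene runx1 had between 1.46 and 19.6 CPM over the 6 libraries, with a log2 fold change of -0.13 ± 1.94. In the GATA family, the erythroid gene gata1a had 36.6, 38.1 and 42.2 CPM in DMSO 2, DMSO 3 and MTZ 3 and at most 0.054 CPM elsewhere. The stem cell gene gata2b had 112 CPM in DMSO 1, 24.9 CPM in DMSO 2 and 24.1 CPM in MTZ 1, and at most 3.53 CPM in the other 3 libraries. The gene gata1b had 1.24, 40.8 and 0 CPM in DMSO and 18.2, 35.1 and 7.80 CPM in MTZ. Its highest library, DMSO 2, was also the highest for gata3. The gene gata2a had 23.7 CPM in MTZ 1 and at most 0.447 CPM elsewhere. MTZ 1, where gata3 was lowest, held counts of gata2a, gata2b and gata1b, but of these only gata2a was highest there.

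**Figure D3:**
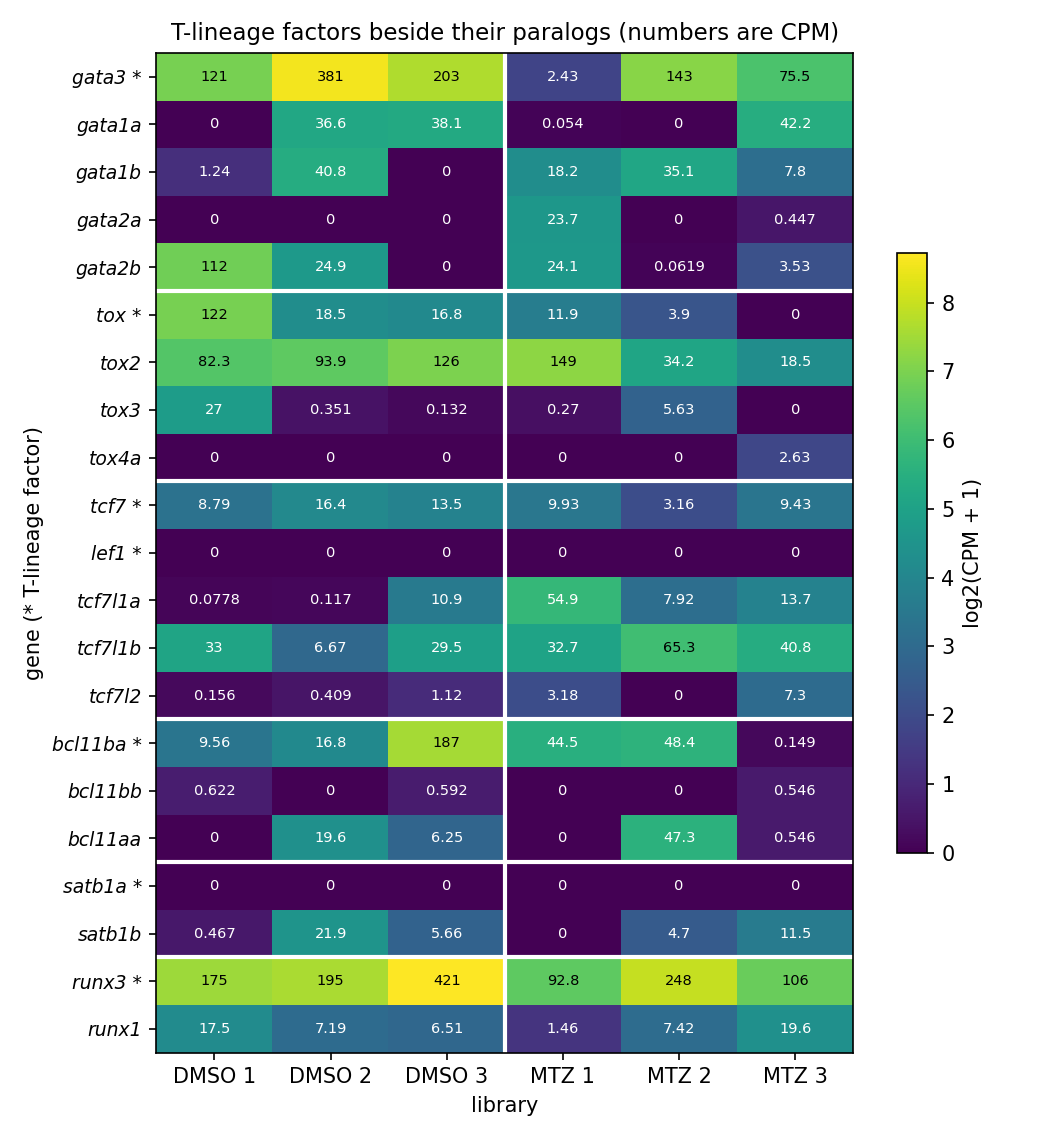
CPM of the 7 T-lineage factor genes, marked with an asterisk, and of their paralogs with counts, in rows grouped by family and in columns by library. Colour gives log2(CPM + 1) and the printed numbers are CPM. The rows of lef1 and satb1a are at 0 throughout, and satb1b is detected in all libraries except MTZ 1.

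Other factors of the T lineage and partners of these proteins formed a list of 36 genes found in the table, of which 28 were tested and 0 passed edgeR's test. A log2 fold change above 0 was fitted for 18 and below 0 for 10, and the median was 0.20. The member of smallest unadjusted p was ets1 (ENSDARG00000024431), an ETS factor gene, with 10.3, 58.8 and 61.5 CPM in DMSO and 37.0, 205 and 98.7 CPM in MTZ (log2 fold change 1.38 ± 0.87). It was followed by the lymphoid regulator ikzf1 at 0.49 ± 0.36, the E-protein inhibitor id2a at -0.55 ± 0.40 and the repressor bach2b at 1.84 ± 1.49, all on the log2 scale. The gene cbfb, whose product is the obligate partner of RUNX proteins, had 60.9, 117 and 159 CPM in DMSO and 167, 165 and 68.8 CPM in MTZ, groups that overlapped widely. The HMG-box partner gene ctnnb1, for beta-catenin, had between 24.3 and 123 CPM. The corepressor gene tle3b, for a protein that TCF factors recruit, had 67.4, 47.5 and 38.1 CPM in DMSO and 0, 15.7 and 22.1 CPM in MTZ. It was the single tested gene of this list whose groups did not overlap, against 10.8% of all tested genes. Its log2 fold change, -2.01 ± 1.84, missed the threshold (edgeR adjusted p = 0.9997). Groups of the related genes tle3a and tle2a overlapped. The log2 fold change of tle3a was -0.25 ± 2.25. The gene tle2a, left out by the filter, had 0, 0.0585 and 0.395 CPM in DMSO and 23.2, 0 and 24.4 CPM in MTZ. Values were already known when cbfb, ctnnb1, tle3b, tle3a and tle2a were picked.

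Of the co-receptor genes that mark mature T cells, those that were found were at or near 0. Of these, cd4-1 and cd8a had no counts, and cd8b had 2.16 CPM in DMSO 2 alone. The co-receptor gene cd4-2.1 was not matched to a row, so its level is not known. Of 22 T cell genes listed, 7 were not matched, among them the receptor gene trac. Of 15 T cell genes found, 12 were tested, 3 with a fold change above 0 and 9 below 0, with a median log2 fold change of -0.26, and 0 passed edgeR's test. The 4 with the highest means were the thymus-homing receptor gene ccr9a, the interleukin-7 receptor gene il7r, the adaptor gene sla2 and the kinase gene lck. That order also depends on gene length, for which the counts are not corrected. The kinase gene lck had 127, 99.2 and 238 CPM in DMSO and 0.054, 71.0 and 86.0 CPM in MTZ. The groups of lck did not overlap, and MTZ 1 was lowest for lck as for gata3. Its log2 fold change was -1.56 ± 1.46 (edgeR adjusted p = 0.9997). Groups did not overlap in 2 of the 12 tested T cell genes, against 10.8% of all tested genes. The other T cell gene whose groups did not overlap lay the opposite way: the co-stimulatory receptor gene cd28 had 16.3, 21.6 and 8.35 CPM in DMSO and 36.1, 82.0 and 61.5 CPM in MTZ (log2 fold change 1.95 ± 0.99, edgeR adjusted p = 0.9997). The gene sla2 had 272 ± 44.0 CPM in DMSO and 185 ± 69.9 CPM in MTZ, and il7r 332 ± 216 CPM and 299 ± 188 CPM.

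The T cell genes summed to 3220, 2650 and 2740 CPM in DMSO and to 1100, 3990 and 2620 CPM in MTZ (two-sided exact permutation p = 0.7, where the smallest possible p is 0.1). The receptor gene ccr9a made up between 49.8% and 71.3% of the sum in a library, a share that also depends on gene length. Without it the sums were 1190, 1330 and 1370 CPM in DMSO and 324, 1150 and 928 CPM in MTZ (exact permutation p = 0.1, the smallest possible). Those sums held the recombinase genes rag1 and rag2. The gene rag1 had 2.88, 71.2 and 390 CPM in DMSO and 0.378, 0.495 and 17.5 CPM in MTZ. The gene rag2 had 20.8, 378 and 143 CPM in DMSO and 0.216, 39.8 and 16.9 CPM in MTZ. Groups of both overlapped, with log2 fold changes of -4.66 ± 1.97 and -3.25 ± 1.52 (edgeR adjusted p = 0.9997 for each). Without a filter on low counts edgeR called both (adjusted p = 0.00439 and 0.0338), while DESeq2 called neither (adjusted p = 0.17 and 0.49). With ccr9a, rag1 and rag2 all left out, the sums were 1170, 878 and 840 CPM in DMSO and 323, 1110 and 893 CPM in MTZ, which overlapped (exact permutation p = 0.6). Both shorter sums were added with the values known. In these bulk libraries of 50 cells, the sums cannot tell the number of cells that express these genes from their RNA per cell. Nor can they tell which types of cell expressed them. The part of these marker levels in the values of the factors was not tested.

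NK and innate lymphoid markers summed to 109, 859 and 62.5 CPM in DMSO and to 97.7, 535 and 135 CPM in MTZ. DMSO 2, the highest library for gata3, was also highest for il13, a cytokine gene of type 2 lymphoid cells, with 471 CPM against at most 29.3 CPM elsewhere. The related cytokine gene il4 had 63.6 CPM in MTZ 1, the lowest library for gata3, and 21.8 CPM in DMSO 3. The part of innate lymphoid cells in the level of gata3 was not tested. Stem and progenitor markers summed to 1070 ± 666 CPM in DMSO and 1990 ± 183 CPM in MTZ (exact permutation p = 0.2).

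**Figure D4:**
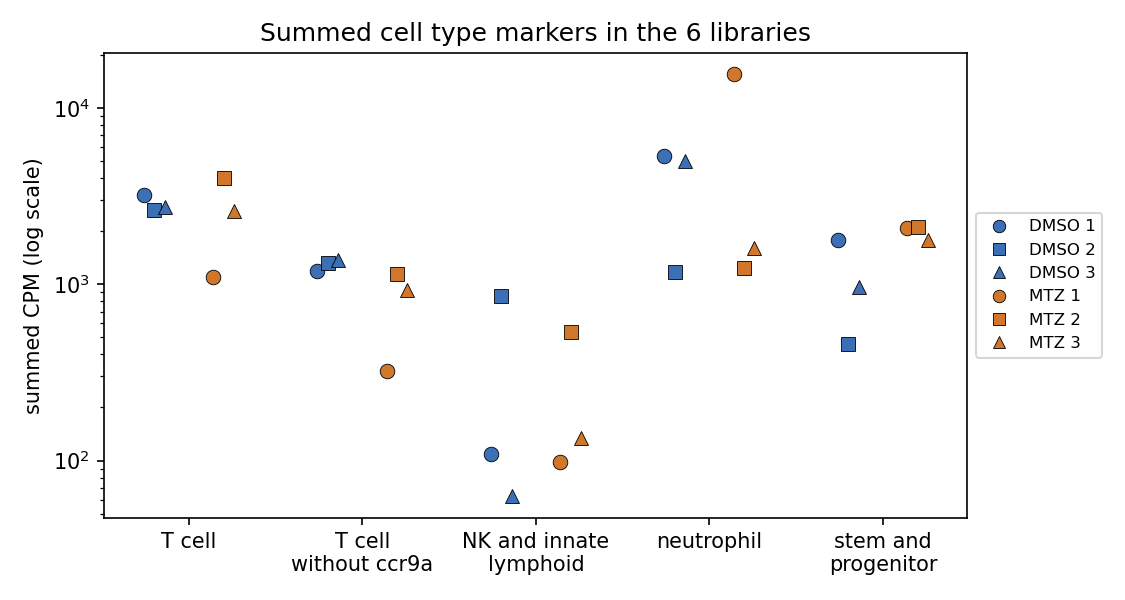
Summed CPM of marker lists in each library, on a log scale, with DMSO libraries in blue and MTZ libraries in orange. The T cell sum without ccr9a was added with the values known. MTZ 1 has the lowest T cell sums, 1100 CPM and 324 CPM without ccr9a, and the highest neutrophil sum, 15600 CPM.

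Each library held its own combination of the factors. Deviations are given as log2(CPM + 1) minus the gene's mean over the 6 libraries. DMSO 1 was highest for tox, with a deviation of 3.38, while those of gata3, tcf7 and runx3 were 0.53, -0.07 and -0.05. DMSO 3 was highest for bcl11ba and runx3, with deviations of 3.15 and 1.21 from their means, and it also had the highest lck. In MTZ 1 the deviation of gata3 was -4.62 and that of runx3, also lowest there, was -0.96. In the same library tox was at 0.13 and bcl11ba was above its mean. In MTZ 3 the deviations of bcl11ba and tox were -4.21 and -3.56, while gata3 was at -0.14. The lowest value of gata3 thus came from another library than the lowest values of tox and bcl11ba.

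Likeness between patterns was measured as the root mean square difference of log2(CPM + 1), centred on the gene's mean, over the 6 libraries. This difference grows with the spread of the genes. It was smallest between tcf7 and runx3, the factors of smallest spread, at 0.98, where 29.1% of the candidate genes lay nearer to tcf7 than runx3 did. Between gata3 and runx3 it was 1.76, with 6.01% of candidates nearer to gata3, and between bcl11ba and runx3 it was 1.89, with 6.15% nearer to bcl11ba. It was largest between gata3 and bcl11ba, at 3.20. The genes nearest to gata3 were nelfb (0.36) and erp44 (0.41), both also lowest in MTZ 1. Nearest to tox were ikzf5 (0.68) and zeb1b (0.81), highest in DMSO 1 like tox. Nearest to bcl11ba were pfas (0.65) and zdhhc20a (0.84), nearest to tcf7 were rab5if and mrpl20 (both 0.22), and nearest to runx3 were bysl (0.22) and MZT1 (0.23). With 8280 candidate genes and 6 libraries some genes lie close to any pattern, and with a pseudocount of 10 in place of 1 only pfas of the 10 kept its place.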

How the data were processed

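The authors deposited 1 table of estimated counts (expected counts) per gene, which they had not scaled to a common total. The submitters' processing notes name HISAT2 and GRCz11, but neither their versions nor the counter, annotation release or strand setting, so close paralogs and overlapping genes are uncertain. Between 8.31% and 9.90% of a library's nonzero values had decimals, and values were rounded to whole numbers. No coordinates or sequences are printed, because no annotation of that build was used here.

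MTZ was compared with DMSO by edgeR 4.0.16 in R 4.3.3 (quasi-likelihood, TMM, default filter with a minimum count of 10, group alone, two-sided), with Benjamini-Hochberg adjustment over the 10283 genes tested and a threshold of 0.05. The SE of a log2 fold change is its size over the root of the F statistic. The fit also draws on the spread of other genes, so this SE does not give a gene's own scatter alone. The code of the fits was tested on simulated counts with a much smaller spread than these libraries have. That test does not show how the fits perform at the spread seen here. Alternatives were DESeq2 1.42.0, limma 3.58.1 (voom), other scalings and filters, a replicate block and leaving out each library.

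Members and lists were chosen with earlier results of these data known. Named genes were all 7 members, paralogs with counts, the 4 partners of smallest p, the 4 T cell genes of highest mean and the 2 genes nearest in pattern to each tested member (no clone names); others were chosen after their values were seen. Of 204 list entries, 6 were found by gene ID and 9 had no row of their own. The symbols mmp13a, hbba1 and myhz1.1 had 2 rows each, of which only the first was used in the marker sums. Marker lists of B cells, macrophages, erythroid cells, thrombocytes, skin, pancreas and kidney tubule were also summed.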

Additional observations from a re-analysis of the deposited data

How the results depend on the processing

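The 5 tested factor genes stayed uncalled under all 13 alternatives that gave a value for them. In 11 of the 13 no gene at all was called, so that result is not particular to these genes. The gene tcf7 was not tested with a filter of 10 CPM in 3 libraries, and DESeq2 gave no p for bcl11ba. A fold change below 0 was kept by gata3, tox, tcf7 and runx3 in each alternative that tested them. Fits that left out 1 library gave log2 fold changes from -2.58 to -1.09 for gata3, from -4.74 to -1.74 for tox, from -1.02 to -0.41 for tcf7, from -1.40 to -0.31 for runx3 and from -1.70 to 1.23 for bcl11ba, which was above 0 without DMSO 3. EdgeR called 0 of all genes (327 at an unadjusted p under 0.05), limma voom 0 (565), DESeq2 130 and edgeR without a filter on low counts 52, none of them among the 7 genes. Without a filter gata3 had an unadjusted p of 0.00466 (edgeR adjusted p = 0.549).

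With the replicate number as a block, 0 genes were called and bcl11ba turned to 0.27 ± 2.55. The deviations of same-numbered libraries correlated at -0.0079, -0.0008 and -0.0459. All pairs of a DMSO and an MTZ library lay between -0.0459 and 0.0435. With 3 libraries of 50 cells per group, these values cannot show whether same-numbered libraries shared a pool.

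The T cell sum in MTZ was 0.896 of that in DMSO, 0.878 with total library sizes, 0.616 without ccr9a and 0.805 without ccr9a, rag1 and rag2; with a library left out it ran from 0.65 to 1.15, the last without MTZ 1. By counting error alone, a gene at 0 counts could still have had up to 0.233 CPM at these depths. That bound does not cover molecules lost before sequencing.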

Other observations

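Of the T-lineage factors outside the 7 genes, foxp3a, the regulatory T cell factor, had 258 CPM in MTZ 2 and at most 0.162 CPM in every other library. EdgeR's filter left it out, and edgeR without a filter gave an adjusted p of 0.000186, which rests on that library. The factor gene rorc, of the type that drives interleukin-17 producing lymphocytes in mice, had 102 ± 43.2 CPM in DMSO, 149 and 241 CPM in MTZ 2 and MTZ 3, and 0.162 CPM in MTZ 1, the library lowest for gata3 and lck. Both genes were chosen after their values were seen.

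A locus described in the deposited table as T cell receptor delta constant region had 110, 139 and 346 CPM in DMSO and 102, 53.5 and 26.9 CPM in MTZ, with no overlap (log2 fold change -1.70 ± 0.65, edgeR unadjusted p = 0.0287, adjusted p = 0.9997). A locus described as M1-specific T cell receptor beta chain had 148, 124 and 135 CPM in DMSO and 196, 236 and 173 CPM in MTZ. It was higher in each MTZ library (log2 fold change 0.57 ± 0.32, edgeR unadjusted p = 0.114, adjusted p = 0.9997). The thymocyte selection gene themis had 94.9, 159 and 45.2 CPM in DMSO and 49.9, 13.4 and 20.1 CPM in MTZ. Its groups overlapped (log2 fold change -1.84 ± 0.81, edgeR unadjusted p = 0.0522, adjusted p = 0.9997). These 3 were chosen after their values were seen, and none passed the test. Over all tested genes, groups did not overlap in 10.8%, and edgeR's unadjusted p was under 0.05 in 3.18%.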
